A study of Mus musculus with 7 samples.

Results

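Among 36465 cell barcodes recovered from mouse bone marrow progenitors, 6732 held at least 1000 transcript molecules of which more than 10% came from genes of the mitochondrial genome. A cell barcode is the sequence tag shared by all molecules caught in 1 droplet, and each molecule is counted once by its unique molecular identifier (UMI). These high-share barcodes are the fraction that quality filters usually set aside, and they were described here for what else they contained. They were compared, library by library, with 24430 low-share cells, whose mitochondrial share was 10% or less and which reached the same 1000 UMIs and a minimum of 500 genes with a UMI. A single further barcode of at least 1000 UMIs had a low share but fewer than 500 genes and entered neither class. Because the high-share barcodes were chosen by their mitochondrial share and UMI total, both are given as a description, and the gene tests were run on the make-up of the UMIs within barcodes. The share of high-share barcodes was compared only between the labels, which the choice did not use.

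The barcodes came from bone marrow cells sorted as Lineage-, Sca-1+ and cKit+, after lysis of erythrocytes. These LSK cells are the fraction that holds hematopoietic stem cells and multipotent progenitors. They were run as 7 droplet libraries, all labelled as made with a 3′ v2 kit. Of these libraries, 3 are labelled B4galt1 full knockout (genotype given as 129S1/C57Bl/6, B4-/-) and 4 are labelled wild type (129S1/C57Bl/6). The series' title names glycosylation, Wnt, Muc13 and a megakaryocytic fate. The labels give no age, sex or treatment, and nothing says that the libraries came from separate animals, so the p-values below measure the spread between libraries. The libraries are named knockout 1 to 3 and WT 1 to 4 after their labels.

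Mitochondria keep a small genome of their own, which is transcribed inside the organelle and encodes core subunits of the respiratory chain, while the other subunits are encoded in the nucleus and their mRNAs are translated in the cytoplasm. A mitochondrial transcript is therefore held behind the organelle's membranes, a nuclear-retained RNA behind the nuclear envelope, and a cytoplasmic mRNA only behind the plasma membrane. A high mitochondrial share is commonly read as a sign of a leaky cell, although some cell types carry many mitochondria. Early hematopoietic progenitors are marked by regulators such as Mecom and Meis1, and the first myeloid steps by granule enzymes such as Mpo and Elane.

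The library totals ranged from 14970791 to 89747946 UMIs. The barcode sequences fell into 2 sets: knockout 3 and WT 4 used 480 of the possible 6-base openings, while knockout 1, knockout 2 and WT 1 to 3 used 900 to 958, and at most 128 openings were common to a pair of libraries from different sets. The larger set of libraries is called list A and the smaller list B. The labels name the same kit for both lists, although their barcode sequences differ, and whether another kit version was used was not tested. Knockout 3 and WT 4 shared 88 barcode sequences, and every other pair of libraries shared 0 to 7. B4galt1, which encodes a galactosyltransferase and is the gene named in the knockout label, was far from absent in the libraries labelled knockout: in the low-share cells it was at 61.7, 61.2 and 37.5 scaled CPM (CPM, counts-per-million, of the library's non-mitochondrial UMIs in that class, after TMM scaling for composition) in knockout 1 to 3 and at 62.6, 71.6, 62.2 and 46.4 in WT 1 to 4, so that within each barcode list the libraries labelled knockout were slightly lower. A 3′ count checks the label only if the deletion removes the counted end, which is not given in the sources used here, so the groups are called by their labels throughout.

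The share of barcodes with at least 1000 UMIs that were high-share was 37.6%, 39.1% and 0.724% in knockout 1 to 3 and 44.5%, 41.7%, 53.2% and 2.08% in WT 1 to 4. The 5 libraries of list A were all above 37%, and both libraries of list B were below 3%. In numbers, the high-share barcodes came to 1850, 1106 and 50 in the libraries labelled knockout and to 996, 840, 1702 and 188 in those labelled WT. Their median mitochondrial share was 50.4% in knockout 1, 14.3% in knockout 3 and in WT 4, and 20.5% to 22.4% in the others, against 2.13% to 4.64% in low-share cells.

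**Figure D1:**
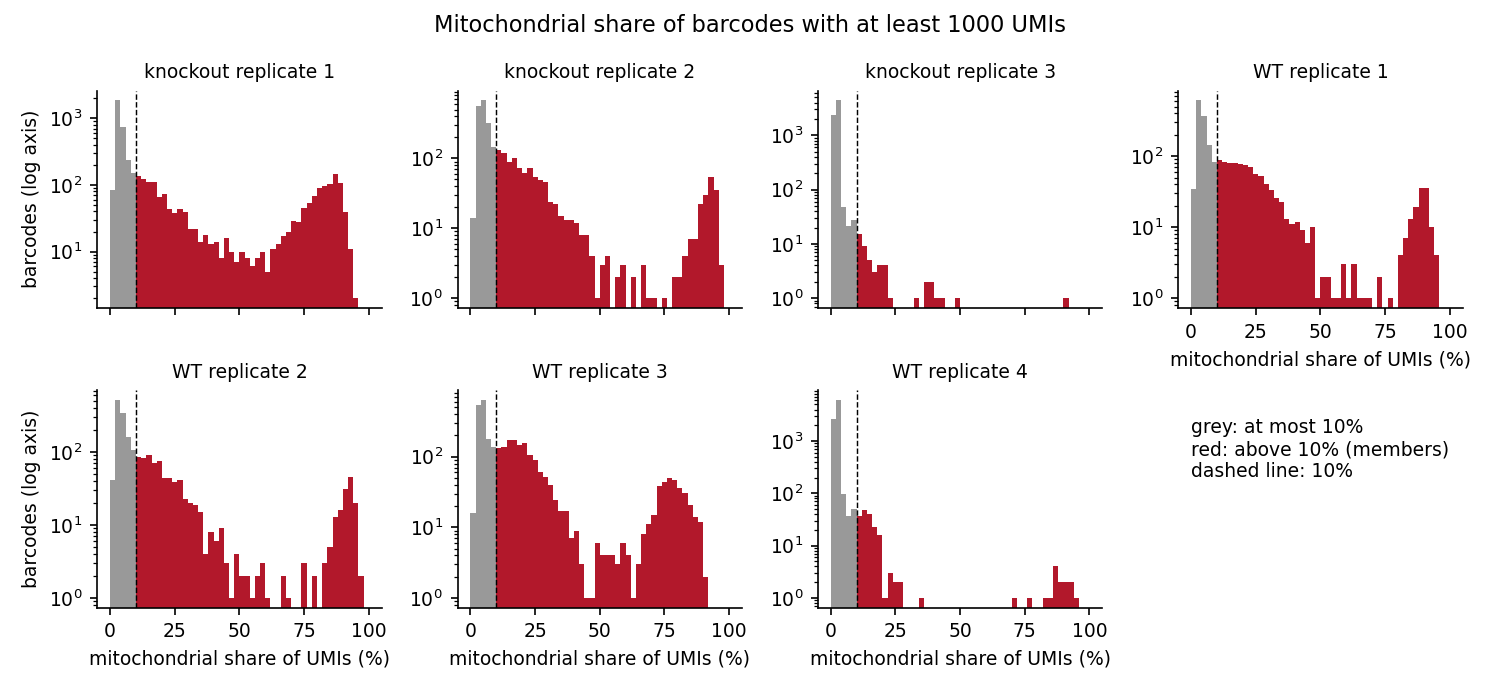
Distribution of the mitochondrial share (percent of UMIs, horizontal axis) over barcodes with at least 1000 UMIs in each of the 7 libraries, with the number of barcodes on a log axis. Grey bars are at or below 10%, red bars are the high-share barcodes, and the 5 libraries of list A show a second hump above 75%.

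The distribution of the mitochondrial share had a second hump. In list A, 923, 920, 848, 686 and 1343 barcodes lay between 10% and 50% in knockout 1, knockout 2 and WT 1 to 3, and 737, 166, 130, 139 and 235 lay above 75%, with fewer in between. Knockout 1 stood apart, since 50.1% of its high-share barcodes were above a share of 50%, against 14.9% to 21.1% in the other libraries of list A. The 2 humps also differed in the numbers of molecules. Between 10% and 50%, the median barcode held 371.5 to 634 mitochondrial UMIs in list A, against 359 to 455 in low-share cells of the same libraries, but only 1370.5 to 2279 non-mitochondrial UMIs against 7715 to 10651.5. Above 75%, the median barcode held 952 to 1293 mitochondrial and 103 to 246 non-mitochondrial UMIs. These depths follow from the rule that chose the barcodes and were not tested.

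Around the limit itself, values changed by steps of different size from library to library. Barcodes with a share of 8% to 10% and of 10% to 12% had median totals of 3956 and 2206.5 UMIs in WT 1 and of 5148 and 4507 UMIs in knockout 1. The ribosomal protein genes took 9.99% and 5.92% of the non-mitochondrial UMIs on either side in WT 1, and 17.1% and 16.2% in knockout 1.

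With the 13 mitochondrial genes left out, the high-share barcodes had lost cytoplasmic housekeeping mRNAs and kept nuclear and long-gene transcripts, relative to low-share cells of the same library. Of 13160 genes tested on counts summed per library and class, 4086 (31%) were lower and 3718 (28.3%) were higher in high-share barcodes at an adjusted p below 0.05 (edgeR quasi-likelihood test with the library as a block, Benjamini-Hochberg adjustment over all genes tested). With 59.3% of all genes called, a call alone says little about a gene, and the size and the order of the differences are given below. The median log2 difference over all genes was -0.01. Scaling to the total of non-mitochondrial UMIs in place of TMM moved that median to 0.26 and the calls to 5356 higher and 2651 lower. All differences, those called gains and losses below included, are therefore relative to the other transcripts in the same barcodes. A transcript that is higher need not be more abundant per cell. The list A libraries alone gave 4033 higher and 4177 lower of 13457 genes.

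The 12 largest losses were taken among called genes that were lower in every library. They included 4 ribosomal protein genes, and all 12 were genes of short span. Plac8, a gene known for its high level in myeloid progenitors, was lowest of all by the fitted difference among genes that were lower in every library (-2.25 on the log2 scale, SE 0.20). It was at 925, 433 and 897 scaled CPM in the high-share barcodes of knockout 1 to 3 and at 199, 99.7, 189 and 674 in those of WT 1 to 4, against 3798, 2266, 2779, 1483, 894, 887 and 1731 in the low-share cells of the same libraries, in the same order. Each library's high-share value was below its own low-share value, and only knockout 1 and knockout 3 reached the lowest low-share levels of the other libraries. The gene lies at chr5:100553725-100572245 (GRCm38).

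Rpl10, a protein of the large ribosomal subunit (chrX:74270812-74273135), was at 622, 261 and 836 scaled CPM in the high-share barcodes of knockout 1 to 3 and at 275, 116, 337 and 1520 in those of WT 1 to 4. The low-share cells held 1985, 1162 and 5225 and 1569, 922, 1439 and 4942, so that the log2 difference was -2.24 (SE 0.17). Gapdh, the glycolytic dehydrogenase (chr6:125161715-125166467), was at 448, 165, 296, 98.8, 48.9, 99.6 and 319 scaled CPM, in the same order, in high-share barcodes. In low-share cells Gapdh was at 1008, 673, 1499, 641, 462, 486 and 1329, and its log2 difference was -2.23 (SE 0.19). Both genes were lower in 7 of 7 libraries, as the choice of the losses required. For Gapdh all 7 high-share values lay below all 7 low-share values.

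The other 9 of the 12 largest losses had log2 differences between -2.20 and -2.11 and, by the same choice, were lower in every library. They were Rpl15, Rps15a and Rps2 of the ribosome, Btf3 of the complex that meets nascent chains at the ribosome, Sec61b of the channel into the endoplasmic reticulum, Ppia, the abundant cytosolic cyclophilin, Nme2, a nucleoside diphosphate kinase, Npm3, a nucleoplasmin, and Mien1. All 12 lie in genes of 1284 to 18521 bases from start to end.

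The 12 largest gains were of another kind. Gm15261, annotated as an antisense transcript (chrX:169037674-169106536), was at 59.4, 66.3 and 30.4 scaled CPM in the high-share barcodes of knockout 1 to 3 and at 91.6, 87.6, 137 and 44.4 in those of WT 1 to 4. Low-share cells held 13.4, 8.56, 15.5, 19.5, 16.2, 19.8 and 15.6, and the log2 difference was 2.35 (SE 0.16). All 7 high-share values of Gm15261 lay above all 7 low-share values. The other gains were Gm26827 (2.28), Angpt2 (2.23), Gm28375 (2.17), Gm47167 (2.10), Gm32036 (2.10) and Gm26917 (2.07). After these came Gm15563 (2.05), Gm48678 (1.99), Fndc9 (1.98), 4930444A19Rik (1.93) and Gm16599 (1.83). All 12 gains were chosen among genes higher in 7 of 7 libraries. In knockout 3, whose high-share barcodes summed to 110463 non-mitochondrial UMIs, a single UMI was worth 7.60 scaled CPM, so that Angpt2, Fndc9 and Gm26827 rested on 1 UMI there.

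In the GENCODE vM21 annotation, 10 of these 12 genes lie whole inside a protein-coding gene of the other strand. Gm15261 lies inside Arhgap6, Angpt2, which encodes an angiopoietin, inside Mcph1, Fndc9 inside Cyfip2, Gm32036 inside Elmo1 and Gm16599 inside Cux1. None of the 12 largest losses lies inside another gene in this way. Over all genes tested, 471 lie inside a protein-coding gene of the other strand, of which 50.7% were higher and 24.6% lower in high-share barcodes (median log2 difference 0.59), against 27.4% and 31.3% of the other 12680 genes (median -0.02). Whether the counting used strand, and whether it took reads in introns, is not given in the sources used here, so such a gene and the gene around it cannot be told apart. The surrounding genes of the named gains differed less: Arhgap6 by 0.82, Mcph1 by 0.72, Elmo1 by 0.73 and Cux1 by 0.62, while Cyfip2 was at -0.20 on the same log2 scale. This nesting was examined after the values had been seen.

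**Figure D2:**
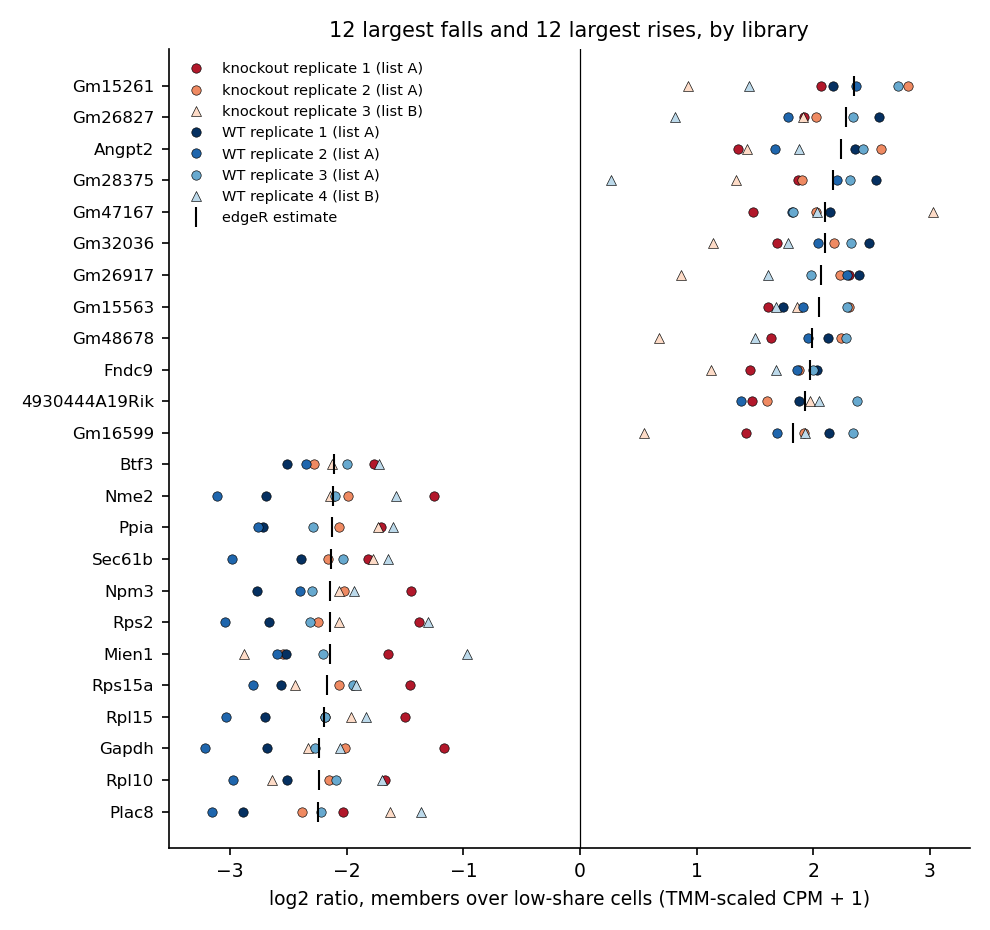
Log2 ratio of high-share barcodes (members) over low-share cells, from TMM-scaled CPM plus 1, for the 12 largest gains and 12 largest losses in each of the 7 libraries. Circles are list A, triangles list B, and black ticks the edgeR estimates. All losses lie left of 0 and all gains right of 0, as the choice of these genes required.

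Gene groups were then taken by role. The ribosome moved as a block: 79 of 79 tested ribosomal protein genes were lower, with differences from -2.24 to -0.84 and a median of -1.78. The 13 translation factors tested were all lower (median -1.63), among them Eef1b2 (-1.84, SE 0.15), which recharges the elongation factor, and Naca (-1.77, SE 0.15), the partner of Btf3. Of 11 genes of the actin cytoskeleton, 10 were lower (median -1.59). Tmsb4x, which sequesters actin monomers, was at -2.05 (SE 0.18) and Actg1 at -1.67, while Tpm3 was not called (-0.22). These counts stand against the 31% of all genes called lower.

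Nuclear genes of energy metabolism were mostly lower too. The mitochondrial genes were high by the rule that chose the barcodes and were not part of this test. All 22 tested nuclear genes for the respiratory chain were lower, with a median of -1.58. Ndufa4, a subunit of the chain's terminal part, was at 228, 145, 365, 130, 91.4, 143 and 544 scaled CPM in the high-share barcodes of knockout 1 to 3 and WT 1 to 4, and at 832, 684, 1294, 653, 533, 610 and 1233 in low-share cells. The high-share values of Ndufa4 stayed below the low-share values in list A and overlapped them only through WT 4, and its log2 difference was -2.02 (SE 0.15). Cox7a2, of cytochrome oxidase, was at -1.63 and Uqcrh, of the cytochrome bc complex, at -1.59. Of 15 genes for mitochondrial import and the matrix, 13 were lower (median -1.38), including Tomm7 (-1.73) and Tomm20 (-1.60) of the outer-membrane import channel and Mrps14 (-1.97) of the mitochondrial ribosome. Lrpprc, which stabilizes mitochondrial mRNAs, was the exception (0.61, SE 0.10), and Polrmt, the mitochondrial RNA polymerase, was not called (0.07). Of 10 glycolytic genes, 9 were lower (median -1.05) and Hk2, a hexokinase, was higher (0.63, SE 0.12). Lrpprc spans 85.5 kb and Hk2 49.4 kb of genome, against a median of 8.31 kb for the import and matrix list and 15.4 kb for the glycolysis list.

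RNAs known to stay in the nucleus were mostly higher in the summed high-share barcodes. Malat1, an abundant nuclear RNA of speckles, was at 20869, 15496 and 20888 scaled CPM in the high-share barcodes of knockout 1 to 3 and at 21048, 16808, 23143 and 19221 in those of WT 1 to 4. Low-share cells held 11544, 8610, 13441, 11173, 10124, 14116 and 14540. Every high-share value lay above every low-share value, and the log2 difference was 0.73 (SE 0.18). Kcnq1ot1, an imprinted antisense RNA bound to chromatin, was higher by 0.94 (SE 0.12), Pvt1 by 0.90 and Firre by 0.81. Of the 10 listed nuclear RNAs tested, 8 were higher, against 28.3% of all genes. Neat1 was not called (0.42, adjusted p 0.0570). Gas5, whose spliced transcript is known to reach the cytoplasm, was lower (-0.93, SE 0.13). Xist and its antisense partner Tsix are among the 8, and both rest on the libraries that express them, since Xist was below 1 scaled CPM in both classes of knockout 3, WT 3 and WT 4.

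Chaperones, cell cycle genes and stress genes were mostly lower or not called, beside 31% lower and 28.3% higher among all genes. Of 14 chaperones of the secretory pathway, 11 were lower (median -0.76), with Sec61g at -1.68 and Spcs1, of signal peptidase, at -1.98. Of the 9 heat shock genes, 6 were lower, Hsp90ab1 at -1.29 and Hspa8 at -1.12, while Hspa1b was higher (0.41). In the cell cycle lists, 13 of 15 genes of the S phase (median -0.73; Pcna, the replication clamp, at -1.02) and 12 of 18 of the G2/M phase (median -0.83; Tubb4b at -1.51) were lower. Of 11 genes of the p53 and apoptosis list, 4 were lower, with Bax, which permeabilizes the outer mitochondrial membrane, at -1.67 (SE 0.19), and 2 were higher, Mdm2 (0.31) and Bcl2l11 (0.35), shares near those of all genes. Of 9 genes of the integrated stress response, 5 were lower (median -0.66) and the other 4 were not called. Of the 13 immediate early genes, Atf3 was higher (0.67) and Ier3 lower (-0.48), and the other 11 were not called.

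Some lineage lists held genes called in both directions, and others only genes called lower. These counts, too, stand against the 31% of all genes called lower and 28.3% called higher, and several lie near those shares. In the stem cell list of 12 genes, 5 were higher (Mecom 0.95, Trpc6 0.95, Meis1 0.79, Mllt3 0.78 and Fgd5 0.63) and 4 were lower (Ifitm1 -1.74, Ly6a -1.28, Pdzk1ip1 -1.10 and Hoxa9 -0.34). Mecom, a transcription factor needed for stem cell upkeep, was at 476, 1845 and 380 scaled CPM in the high-share barcodes of knockout 1 to 3 and at 1765, 1971, 2378 and 523 in those of WT 1 to 4, against 307, 634, 330, 707, 1031, 911 and 387 in low-share cells. Mecom was higher in 7 of 7 libraries, least in list B. Ly6a, which encodes Sca-1, the antigen used in the sort, was at 16.2, 18.4, 30.4, 5.95, 5.08, 13.4 and 17.7 in high-share barcodes and at 36.6, 25.1, 65.9, 30.9, 17.2, 31.4 and 59.5 in low-share cells, lower in 7 of 7. Kit, the other sort antigen, was higher in 7 of 7 (0.45, SE 0.10), and Cd34 was lower (-0.88, SE 0.12). The 5 higher genes of the stem cell list each span 97.1 kb to 597 kb and the 4 lower genes 2.60 kb to 7.99 kb. Muc13, the mucin of the study's title, was not called (0.25, SE 0.12, adjusted p 0.0730).

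Of the 10 genes of granulocyte-monocyte progenitors, 8 were lower (median -1.08). Their median span was 9.09 kb, and 51.7% of all tested genes spanning 7.82 to 12.1 kb were lower. Calr, among the 8, is also in the list of secretory pathway chaperones. Ms4a3, a marker of committed granulocyte-monocyte progenitors, was lower in 6 of 7 libraries (-1.68, SE 0.27). Mpo, myeloperoxidase, was not called (-0.21, SE 0.26) and lay at 4594, 1348 and 2849 scaled CPM in the high-share barcodes of knockout 1 to 3 and at 600, 341, 272 and 1408 in those of WT 1 to 4. The low-share cells held 3816, 2695 and 1450 and 991, 762, 414 and 775, so that Mpo was higher in knockout 1, knockout 3 and WT 4 and lower in the other 4. The count of 8 fell to 5 without any 1 of knockout 1, WT 1, WT 2 or WT 3, and was 4 with scaling to the total. Dntt, the terminal transferase of early lymphoid cells, was lower in 6 of 7 libraries (-1.63, SE 0.29), and 5 of 8 tested early lymphoid genes were lower. In the dendritic list 5 of 9 were lower, 4 of them genes of class II presentation (H2-Eb1 at -1.90), in the monocyte list 6 of 10 were lower and Klf4 higher (0.54), and in the basophil and mast list 3 of 7 were lower. Of 8 megakaryocyte genes, Vwf (0.94), Itga2b (0.66) and Rab27b were higher and Pf4 (-2.21) and Gp9 (-0.82) lower. Of 7 erythroid genes, Car2, Blvrb and Hbb-bt were lower and Hbb-bs higher, but Hbb-bs and Hbb-bt are near-identical copies and their counts are uncertain.

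Markers of mature cells that the sort should remove were low in most libraries, with 1 exception. The summed neutrophil list took 1.13% of the non-mitochondrial UMIs of the high-share barcodes in knockout 1 and at most 0.0164% in the other 6 libraries, against 0.00156% to 0.455% in low-share cells. S100a9, a calcium-binding protein of neutrophils, was at 5674 scaled CPM in the high-share barcodes of knockout 1 and at 2423 in its low-share cells, while in the other 6 libraries it was lower in high-share barcodes. Its fitted difference was -4.07 (SE 1.15) and became 1.94 once barcodes with mature lineage markers had been left out. No direction is therefore given for S100a9. These markers were scored after thinning to 500 non-mitochondrial UMIs, so shallower barcodes could not be left out. They were 843 of the 1850 high-share barcodes of knockout 1 and no low-share cell. The removal was thus uneven between the classes. After it the calls over all genes were 3677 higher and 4045 lower. In the mature B cell list 2 of 4 tested genes were lower, in the T and NK list 1 of 2, and the 3 tested macrophage genes were not called. In the endothelial and stromal list 1 of 3, Pecam1 (0.42), was higher.

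The difference between the classes ran with the length of the gene in the genome. Gene span is the distance from the start to the end of the gene model, introns included, and 13151 of the tested genes have one. With the genes in 10 equal groups by span (deciles), the shortest decile (0.168 to 4.16 kb) had a median log2 difference of -0.85, with 60% of genes lower and 8.13% higher. In the longest decile (122 to 2961 kb) the median was 0.65, with 80.2% higher and 1.06% lower. The medians of the deciles in between rose step by step from -0.73 to 0.46. Spearman's rho between span and difference was 0.597 and Pearson's r 0.549 across genes, which share libraries and are not independent replicates. Within single libraries rho was 0.451 to 0.595 in list A, 0.287 in knockout 3 and 0.372 in WT 4. Exon bases gave a rho of 0.418, and the level in low-share cells one of -0.238. At a like length of exons the span still parted the genes: among the third with the fewest exon bases, the median was -0.92 for short and -0.05 for long spans, and among the third with the most it was -0.04 and 0.61. Without ribosomal protein genes the shortest decile had a median of -0.83.

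Some genes went against this. Of 2630 genes in the longest 2 deciles, 29 were called lower and were lower in every library. They include Hmgb1, an abundant chromatin protein (138 kb, -1.20, SE 0.13), Scp2, a sterol carrier (101 kb, -1.47), Eif3h, an initiation factor (79.0 kb, -1.16), Lcp1, the actin bundler plastin of blood cells (99.7 kb, -0.73), and Pde4d, a phosphodiesterase (1504 kb, -0.65). Of 2631 genes in the shortest 2 deciles, 11 were higher in every library, among them Malat1, Fndc9, Gm26917 and Zfp692, a zinc finger gene (7.56 kb, 0.74). These genes were singled out after their values had been seen.

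**Figure D3:**
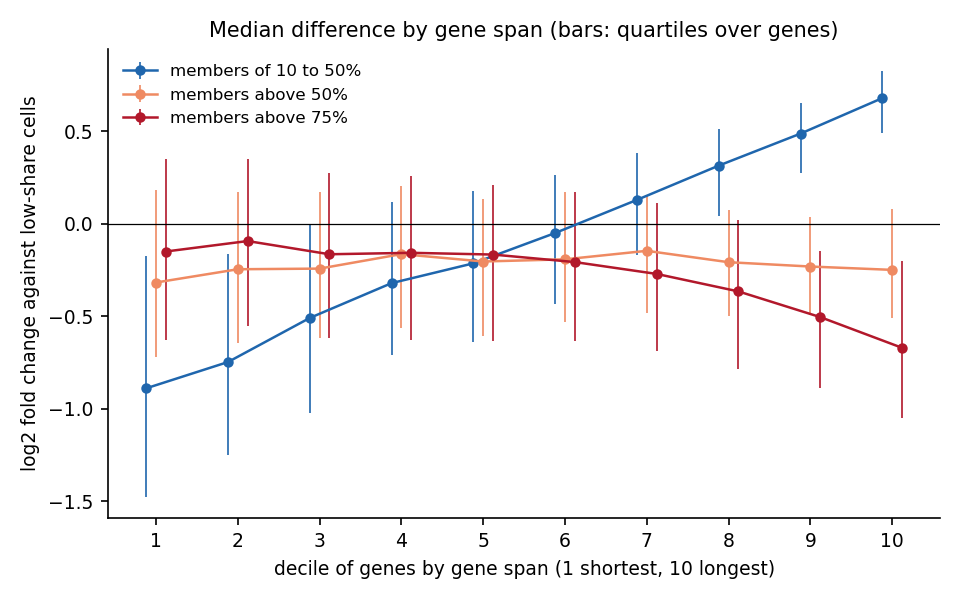
Median log2 difference from low-share cells (vertical axis) by decile of gene span (1 shortest, 10 longest), with bars for the quartiles over genes, for barcodes of 10 to 50%, above 50% and above 75% mitochondrial share. The line for 10 to 50% climbs from -0.89 to 0.68, and the lines above 50% and above 75% do not climb.

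The 2 humps did not hold the same transcripts. Taken alone, barcodes with a share of 10% to 50% gave 3833 higher and 4031 lower genes of 13108 (60% called), with medians of -0.89 in the shortest and 0.68 in the longest decile. Barcodes above 50%, in the 5 libraries with at least 20 of them, gave 66 higher (0.544%) and 86 lower (0.708%) of 12142 (1.25% called), with medians of -0.32 and -0.25. Above 75%, 50 were higher (0.418%) and 120 lower (1%) of 11967 (1.42% called), with medians of -0.15 and -0.67. The barcodes above 75% summed to only 17837 to 171636 non-mitochondrial UMIs a library, against 12162847 or more in low-share cells, and what part this depth has in the small counts was not tested. The ribosomal protein genes, lower in 79 of 79 below 50%, were lower in 8 of 79 above 75% (median -0.37), and the 22 nuclear respiratory chain genes had a median of -0.01.

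Set against each other within the 5 list A libraries, barcodes above 50% and barcodes of 10% to 50% differed in 1644 of 8668 genes (19%), 787 higher (9.08%) and 857 lower (9.89%) above 50%. Of 78 ribosomal protein genes 77 were higher above 50% (median 1.18), of 22 nuclear respiratory chain genes 21, of 13 translation factors 11, and of 8 genes of granulocyte-monocyte progenitors 5, while Mecom (-1.45, SE 0.25), Meis1 (-1.44), Angpt1 (-1.20), Kcnq1ot1 (-1.09) and Malat1 (-0.80) were lower. The shortest decile had a median of 0.93 and the longest one of -0.89. This comparison was added after the data had been seen, and without WT 3 it gave 890 genes.

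Along the whole range of the mitochondrial share, many transcripts therefore went down and came back, or up and came back. The ribosomal protein genes took a median of 17.8% of the non-mitochondrial UMIs of the list A libraries below a share of 5%, then 14.7% at 5 to 10%, 5.81% at 10 to 20%, 4.01% at 20 to 50%, 5.07% at 50 to 75% and 15.9% above 75%. Rpl10 followed them, with medians of 1432, 1176, 378, 190, 160 and 817 CPM (here plain CPM of non-mitochondrial UMIs, without TMM scaling). Malat1 ran the other way, at 9347, 13754, 20605, 23744, 16949 and 8922 CPM over the same bands, and so did Mecom, at 601, 955, 2187, 1830, 945 and 559. Gm15261 rose from 13.5 to 109 CPM at 10 to 20% and was at 5.83 above 75%, where only 3 UMIs of it remained.

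A few genes rose towards the highest shares instead. Gm42418, which overlaps ribosomal RNA sequence on chromosome 17, had medians of 27618 and 35700 CPM in the bands below 10%, 25632 and 31269 between 10% and 50%, and 76869 and 132496 above. Lars2, the mitochondrial leucyl-tRNA synthetase, was at 546 CPM below 5% and at 3196 above 75%. In the comparison within list A, Pde1c (3.01, SE 0.25), Lars2 (1.99), Gm42418 (1.95), Camk1d (1.67), Cdk8 (1.61) and Cmss1 (1.40) were higher above 50%, each in 5 of 5 libraries. Camk1d, a calcium-dependent kinase, had a median of 904 CPM below 5% and of 4929 above 75%. Mpo was also higher above 50% (1.58, SE 0.25), at 5811, 2898, 3241, 2644 and 855 scaled CPM in knockout 1, knockout 2 and WT 1 to 3, against 4936, 1510, 617, 337 and 300.0 in barcodes of 10% to 50%.

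**Figure D4:**
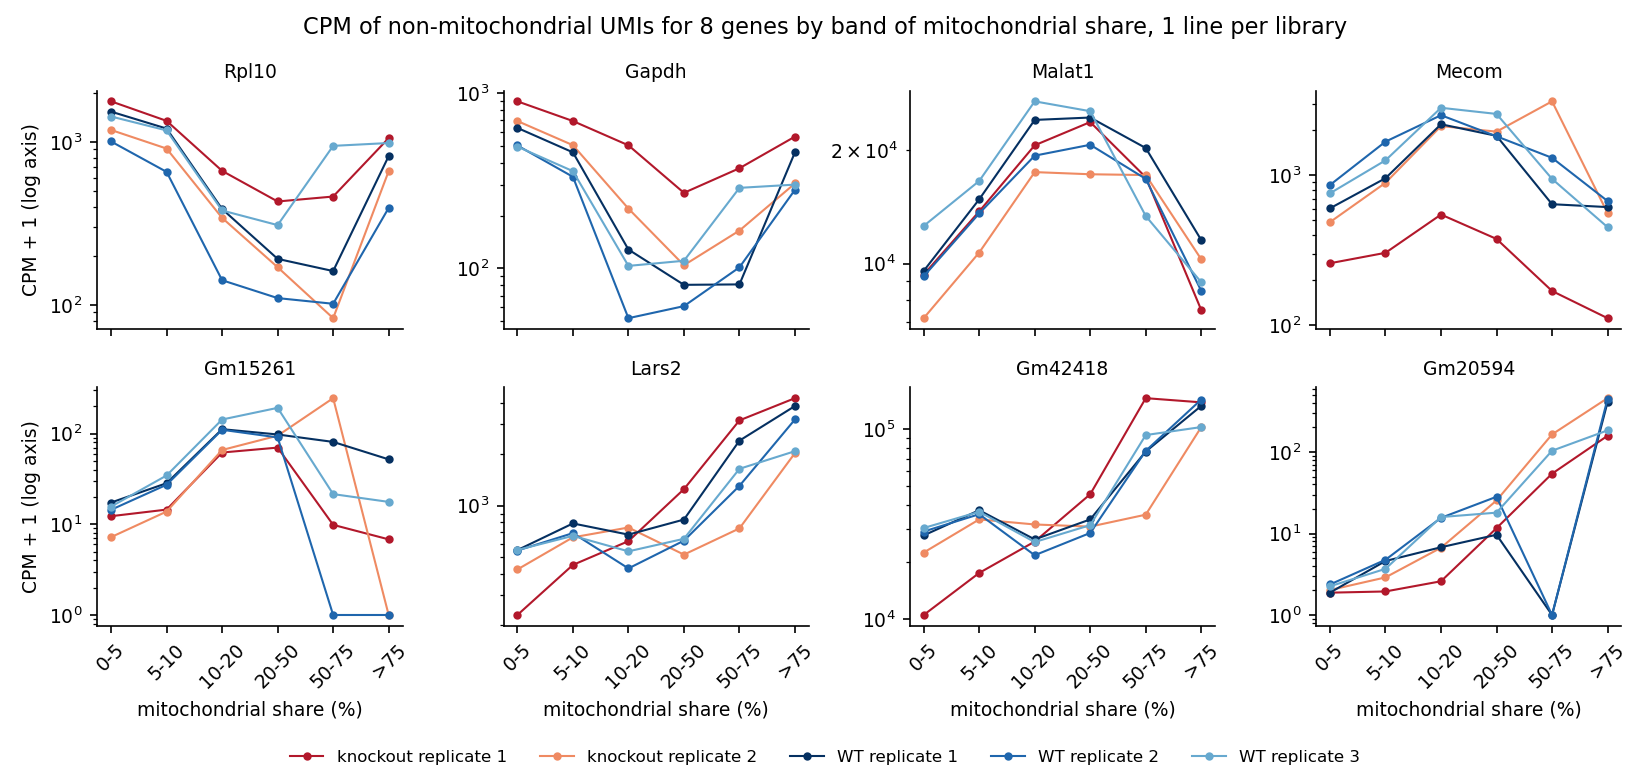
CPM of non-mitochondrial UMIs plus 1 (log axis) of 8 genes by band of mitochondrial share, with 1 line for each of the 5 list A libraries. Rpl10 and Gapdh dip in the middle bands, Malat1, Mecom and Gm15261 peak there, and Lars2, Gm42418 and Gm20594 are highest above 75%; points at 1 are bands with no UMI of the gene.

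Gm20594 stood out among the genes that rose. It is annotated as a protein-coding gene at chr6:79817916-79818364 (GRCm38), and it was at 12.7, 15.4, 10.7, 20.3 and 18.1 scaled CPM in the high-share barcodes of knockout 1, knockout 2 and WT 1 to 3. In the low-share cells of these libraries it was at 1.03, 1.34, 1.46, 1.88 and 1.65, and in the high-share barcodes of list B no UMI of it was counted. All 5 high-share values of list A lay above all low-share values, and the log2 difference was 3.41 (SE 0.21). Its median in list A was 1.02 CPM below a share of 5%, 2.69 at 5 to 10%, 5.79 at 10 to 20%, 17.0 at 20 to 50%, 53.2 at 50 to 75% and 409 above 75%, on 13 to 84 UMIs a band. In the rule for the largest gains it was passed over because it did not reach 20 CPM and was not higher in every library. The gene is a nuclear copy of part of mt-Rnr2, the mitochondrial 16S ribosomal RNA gene: a search of GENCODE vM21 transcripts found 88.5% identity over 435 bases. A stretch of this match is shown, from Gm20594 (chr6:79818251-79818347, plus strand) and from mt-Rnr2 (chrM:2070-2166, plus strand). Within it the sequences differ in 4 of 97 bases, in capitals, and are 95.9% identical.
Gm20594: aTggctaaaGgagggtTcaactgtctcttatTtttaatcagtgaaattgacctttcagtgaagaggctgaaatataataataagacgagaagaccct
mt-Rnr2: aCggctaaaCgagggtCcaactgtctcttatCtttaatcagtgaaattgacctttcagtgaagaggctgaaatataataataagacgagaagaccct
The 13 mitochondrial genes counted in the tables are protein-coding and mt-Rnr2 is not among them. Whether the UMIs given to Gm20594 came from mt-Rnr2 was not tested. In all, 61 nuclear genes match a mitochondrial transcript in this annotation, of which 5 are in the tables, Gm20594 among them.

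The make-up of the mitochondrial UMIs themselves was compared as well. For each of the 13 genes the share of all mitochondrial UMIs was compared between the classes over the 7 libraries, and 0 of 13 passed after adjustment (exact sign-flip permutation test, two-sided; 7 of 13 had an unadjusted p below 0.05). With 13 genes, 1 could pass the adjustment only together with several others, because the smallest p that 7 libraries allow is 0.0156. It was reached, with an adjusted p of 0.0677, by mt-Atp8, mt-Nd5 and mt-Nd3, each a smaller share in 7 of 7 libraries, with mean log2 ratios of -0.53 (SD 0.14, n = 7), -0.34 (SD 0.14) and -0.21 (SD 0.11). Mt-Atp8 took 0.107% to 0.680% of the mitochondrial UMIs in high-share barcodes and 0.175% to 1.05% in low-share cells. Mt-Atp6, which encodes the next subunit of ATP synthase, and mt-Co2 of cytochrome oxidase took a larger share in 6 of 7 libraries, by 0.09 (SD 0.07) and 0.06 (SD 0.06). Mt-Co1 had a mean log2 ratio of -0.21 (SD 0.20) and was a smaller share in 6 of 7.

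To ask which lineages the high-share barcodes belong to, each barcode was thinned to 500 non-mitochondrial UMIs, and a barcode counted as positive for a lineage at 2 or more UMIs of its marker list. The stem cell list was positive in 34.6%, 68.0% and 34.7% of the high-share barcodes of knockout 1 to 3 and in 65.9%, 74.1%, 73.5% and 34.1% of those of WT 1 to 4. In low-share cells it was positive in 36.9%, 39.8%, 38.0%, 43.8%, 53.2%, 47.8% and 37.4%. The share was larger in 4 of the 5 libraries of list A and smaller in knockout 1 and in both libraries of list B, with a mean difference of 12.5 points (SD 14.7, n = 7; exact permutation p 0.125, adjusted p 0.325). As a background, the stem cell list was positive in 7.04% of 213 low-share cells and in 31.4% of 70 high-share barcodes gated by the neutrophil list, at the same depth. The granulocyte-monocyte list was positive in 67.4% of high-share barcodes in knockout 1 and in 11.9% to 61.2% of those of the other libraries, with a mean difference of -4.03 points (SD 14.0).

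Of the 13 lineage lists, 0 passed after adjustment, and 3 had an unadjusted exact permutation p below 0.05, each at 0.0156 (adjusted p 0.0677). As 0.0156 is the smallest p that 7 libraries allow, a list could pass only together with several others. The erythroid list was positive less often in 7 of 7 libraries (mean difference -1.42 points, SD 1.06), and so was the mature B cell list (-0.39 points, SD 0.25). The endothelial and stromal list was positive more often in 7 of 7 (1.10 points, SD 0.48), at 0.578% to 2.04% of high-share barcodes against 0.147% to 1.37% of low-share cells. Its members that passed the filter of the gene test were Pecam1, Emcn and Col1a2, of which Pecam1 is also expressed by stem cells. The tested genes of the erythroid, mature B cell and endothelial and stromal lists had median spans of 14.5, 3.80 and 91.1 kb. Over all tested genes, the span deciles holding these lengths had median log2 differences of -0.33, -0.85 and 0.46, in the same order. What part gene span has in these shares was not tested. The thinning left out barcodes of under 500 non-mitochondrial UMIs, which were 843, 171, 1, 138, 142, 341 and 15 high-share barcodes in knockout 1 to 3 and WT 1 to 4 and no low-share cell, so that the hump above 75% is not part of this comparison. Without thinning, 12 of 13 lists passed, and the endothelial and stromal list turned to -31.2 points.

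Within barcodes of 1 lineage list, short and ribosomal genes were again lower and long genes higher. Among barcodes positive for the stem cell list, in the 6 libraries with at least 20 of each class, 3406 of 11727 genes were higher (29%) and 3887 lower (33.1%), 62.2% in all. Among those positive for the granulocyte-monocyte list, in 7 libraries, 2578 of 11078 were higher (23.3%) and 2851 lower (25.7%), 49% in all. Among those positive for the dendritic list, in 4 libraries, 678 of 5910 were higher (11.5%) and 1061 lower (18%), 29.4% in all. Ribosomal protein genes were lower in 79 of 79, 79 of 79 and 78 of 78. The shortest decile by span had medians of -1.17, -0.87 and -1.54 and the longest of 0.64, 0.66 and 0.72. Gm15261 was among the 3 largest gains in all 3 gates, at 2.42, 2.28 and 2.95. The other leading gains were Insyn2b (2.46) and Gm38604 (2.38) in the stem cell gate, Gm26917 (2.28) and Fndc9 (2.16) in the granulocyte-monocyte gate, and Gm28375 (3.06) and Gm12064 (2.55) in the dendritic gate. The leading losses were Mea1 (-2.70), Hbb-bt (-2.33) and Wfdc17 (-2.31) in the stem cell gate and Bex4 (-3.17), Ngp, a neutrophil granule protein (-2.44), and Ciao2a (-2.39) in the granulocyte-monocyte gate. In the dendritic gate they included Csnk2b, with no UMI in high-share barcodes, and Ifi30, a thiol reductase of antigen processing (-4.30).

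The labels were compared next. The share of high-share barcodes averaged 25.8% ± 21.7 (SD, n = 3) in the libraries labelled knockout and 35.4% ± 22.7 (SD, n = 4) in those labelled WT, a difference of -9.57 points that was smaller than the spread between libraries (two-sided exact permutation p 0.457 over 35 splits). Within the barcode lists the difference was -8.13 points in list A (38.3% ± 1.05, n = 2, against 46.5% ± 5.96, n = 3; exact permutation p 0.2, for which 0.1 is the least that 10 splits allow). In list B the values were 0.724% and 2.08%, with 1 library a label. Permuting the labels only within the lists gave an exact permutation p of 0.05, the smallest that its 20 splits allow. The labels hold unequal numbers of list A libraries, so no split could reach this size in the other direction. This p therefore counts only 1 direction. Without knockout 3 the difference turned to 2.96 points, and for barcodes above a share of 50% alone it was 2.06 points.

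Within the high-share barcodes, 20 of 10647 genes (0.188%) differed between the labels, 14 higher (0.131%) and 6 lower (0.0564%) in the libraries labelled knockout (edgeR quasi-likelihood test with the barcode list as a covariate; 1908 genes had an unadjusted p below 0.05). In knockout 1 to 3, Arpp21, a gene of early lymphoid progenitors, was at 4.10, 3.46 and 8.08 scaled CPM. These values rest on 14, 6 and 1 UMIs. In WT 1 to 4 it was at 59.2, 79.3, 53.6 and 62.8, on 85, 105, 155 and 19 UMIs. The labels did not overlap, and the log2 difference was -3.95 (SE 0.35). The low-share cells differed between the labels in the same direction, with Arpp21 at 8.04, 7.65 and 14.1 plain CPM against 57.8, 82.1, 64.5 and 33.1. Dntt was at 14.7, 28.3 and 56.6 against 113, 64.2, 77.0 and 483 scaled CPM (-2.23, SE 0.33). The other 3 named lower genes were Itga9 (-2.40), an integrin subunit, Lpar1 (-3.17), a lysophosphatidic acid receptor, and Fgf13 (-2.44). In the high-share barcodes of knockout 3 they were counted with 0, 0 and 3 UMIs, and Itga9 had 1 UMI in those of WT 4. On the higher side, Ms4a3 was at 257, 64.7 and 154 scaled CPM against 14.6, 12.8, 4.49 and 16.5 (3.90, SE 0.52). Ccr1, a chemokine receptor of myeloid cells, was at 30.2, 9.24 and 16.2, on 103, 16 and 2 UMIs, against 0.696, 0, 0.345 and 0. In low-share cells Ms4a3 was at 751, 158 and 61.8 plain CPM against 67.7, 32.0, 18.3 and 49.99, where knockout 3 and WT 1 overlap, and Ccr1 at 29.5, 17.4 and 9.36 against 1.21, 1.64, 1.15 and 3.99. They were followed by BC018473 (2.08), Card9 (3.00), an adaptor of myeloid cells, and Sgms2 (4.51). B4galt1 (-0.09, SE 0.22) and Muc13 (0.38, SE 0.33) were not called in high-share barcodes. The number of genes called was 1 without WT 1, WT 2 or WT 3, 13 without knockout 3, 47 without knockout 1 and 1501 without knockout 2, so that the count rests on single libraries.

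Whether high-share barcodes differed from low-share cells by another amount under the 2 labels was tested as an interaction. It called 4 of 14573 genes (0.0274%; edgeR quasi-likelihood test, 962 at an unadjusted p below 0.05): Cd177, Wfdc21 and Retnlg, all genes of neutrophils, and Fam155a. Retnlg was counted with 451 UMIs in the high-share barcodes of knockout 1 (121 CPM, against 13.3 in low-share cells) and with 0 to 2 UMIs in those of each other library. Cd177 was at 29.2 CPM in the high-share barcodes of knockout 1 against 8.62 in its low-share cells, and at 0 to 1.36 in the high-share barcodes of the others. Without knockout 1, the library in which the neutrophil list took 1.13% of UMIs, the interaction called 0 genes, with 418 at an unadjusted p below 0.05 and 2 called by DESeq2 with all libraries. The estimates for Cd177 and Retnlg fell without it, and those for Wfdc21 and Fam155a stayed within 1 log2 unit of their values with all libraries. Without WT 3 it also called 0, with 649 at an unadjusted p below 0.05.

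The difference between the classes was also compared between the barcode lists, in a separate fit. Between list B and list A, 122 of 15209 genes (0.802%) differed in it, 68 higher (0.447%) and 54 lower (0.355%) in list B (edgeR quasi-likelihood test). Immediate early genes, which answer stimulation within minutes, were lower in 10 of 13 by this measure (median -2.10). Jun was at 2083, 2213, 2216, 1904 and 2434 CPM in the high-share barcodes of list A (knockout 1, knockout 2 and WT 1 to 3) and at 1033, 1286, 1224, 1344 and 1484 in its low-share cells. In list B, Jun was at 99.6 and 545 CPM in high-share barcodes and at 717 and 1064 in low-share cells of knockout 3 and WT 4. It was thus higher in high-share barcodes in 5 of 5 libraries of list A and lower in both of list B, with a difference of differences of -2.73 (SE 0.39). Klf6 (-2.50), Egr1 (-2.43) and Zfp36 (-2.58) went the same way, and Igkc, an immunoglobulin constant region (-6.60), was at 71.1 and 224 CPM in the low-share cells of knockout 3 and WT 4 and at 0 and 20.3 in their high-share barcodes, and at most 8.84 in list A. Ctsg, cathepsin G of granulocyte progenitors, went the other way (3.03, SE 0.29). It was at 1783 and 481 CPM in high-share barcodes of knockout 3 and WT 4 against 437 and 205 in low-share cells, and below the low-share level in every library of list A. Cdc20 (2.10), Alas1 (1.81), Kdelr2 (1.57) and Nudcd2 (1.52) followed it. Barcode list, depth and share of high-share barcodes moved together in these libraries and cannot be told apart. The count of 122 moved to 6 without knockout 3, 39 without WT 3, 44 without knockout 2, 63 without WT 4, 64 without WT 2, 222 without WT 1 and 1289 without knockout 1.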

How the data were processed

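Tables of raw UMI counts (genes by barcodes) were deposited by the authors for 7 libraries, unfiltered for mitochondrial share, with the smallest barcodes at 500 UMIs. Per the submitters' processing notes, mm10, Cell Ranger 7.0.0 and Seurat 4.4.0 were used, with no role given for each. Whether reads in introns were counted, and strand, are not given in the sources used here. The members and gene lists were chosen with earlier results of these data known.

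Counts without the 13 mitochondrial genes were summed per library and class and tested with edgeR 4.0.16 (TMM, filterByExpr, robust quasi-likelihood fit, library as a block, Benjamini-Hochberg threshold 0.05), in R 4.3.3. A class entered a fit with at least 20 barcodes in that library. The label comparison used the barcode list as a covariate. The procedure was tested on simulated data. Named genes were the 12 largest gains and losses that were called, had the same sign in every library and reached 20 CPM in the higher class, the 3 members of each list with the smallest p, the 5 smallest p in each direction in label and interaction tests, and 3 in each direction per lineage gate, besides B4galt1, Muc13 and the mitochondrial genes. Other genes were named after their values were seen, and some that the rule names are not reported here. Shares were compared with exact permutation tests, those of the lineage lists after thinning to 500 non-mitochondrial UMIs and the others without thinning. Correlations with gene span were computed with scipy 1.17.1. Doublets were not removed; an alternative left out the deepest 5% of barcodes. Gene spans and sequences came from GENCODE vM21 (GRCm38), searched with BLAST 2.17.0. Alternatives included DESeq2 1.42.0, other limits and each library left out. Library totals were 14970791 to 89747946 UMIs, and the high-share barcodes of knockout 3 (110463 non-mitochondrial UMIs) and WT 4 (295489) give the least precise values.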

Additional observations from a re-analysis of the deposited data

Results flagged for a closer look

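In 8 of 89 results tested, a single library stood apart from the other 6 by more than Dixon's limit of 0.568 of the range, and chance alone gives about 1 in 20. All 8 were in the libraries of list B, whose high-share barcodes were the fewest. In knockout 3, the log2 ratio of high-share barcodes over low-share cells was 3.03 for Gm47167, -6.10 for Pdzk1ip1, 0.80 for Ms4a3 and 1.22 for Lrpprc, and the megakaryocyte list was positive less often by -2.67 points. In WT 4, the log2 ratio was -0.52 for Muc13 and 0.35 for Dntt, and the early lymphoid list was positive more often by 3.70 points. These ratios were taken on scaled CPM plus 1, so where few or no UMIs of a gene were counted, the added 1 shaped their size. What part the number of barcodes has in these 8 results was not tested.

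The difference between the classes itself differed between the labels for Cd177 (4.75 on the log2 scale, larger in the libraries labelled knockout), Wfdc21 (4.28), Retnlg (5.11) and Fam155a (3.79), by an interaction term in edgeR. Without knockout 1 the estimates were 2.62 for Cd177, 3.58 for Wfdc21, 1.03 for Retnlg and 3.92 for Fam155a, and 0 genes were called by edgeR, with 418 at an unadjusted p below 0.05. Fam155a rested on 0 to 18 UMIs in the high-share barcodes of each library.

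Between the barcode lists, the difference of differences was 3.03 for Ctsg, 2.10 for Cdc20, 1.52 for Nudcd2, 1.57 for Kdelr2 and 1.81 for Alas1, larger in list B. It was -6.60 for Igkc, -2.50 for Klf6, -2.43 for Egr1, -2.58 for Zfp36 and -2.73 for Jun. Without knockout 3, 6 genes were called and Jun was at -2.06, no longer past the threshold, as were Cdc20, Nudcd2, Kdelr2 and Alas1.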

How the results depend on the processing

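The 7804 genes that differed between the classes became 4595 after thinning to 500 UMIs, 3622 with no replicate block (no library term) and 152 for barcodes above a share of 50%, and 6659 to 8027 with 1 library left out. The 20 genes between the labels became 168 with DESeq2, 9 in list A only, 1 with no covariate, 1094 with no gene filter and 1342 with the replicate block, and 1 to 1501 with 1 library left out. The 4 genes of the label interaction became 2 with DESeq2 (edgeR gave 962 at an unadjusted p below 0.05), 40 in list A only, 46 with no gene filter, and 0 to 138 with 1 library left out. The 122 genes of the barcode list interaction became 852 with no gene filter and 6 to 1289 with 1 library left out, and the comparison of the humps gave 890 to 1558. Whether the replicate numbers pair the libraries is not given in the sources used here. Same-numbered libraries correlated at 0.142, 0.276 and 0.0721 in their deviations, and each correlated best with its own number. The other pairs lay between -0.188 and 0.0595. The replicate block also moved the label difference in the share of high-share barcodes from -9.57 to -20.7 points (exact permutation p 0.25). That difference was 2.06 above a share of 50%, and -20.7 to 2.96 with 1 library left out, positive only without knockout 3.

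The median of the shortest decile of genes by span was -0.32 above 50%, -0.60 scaled to the total and -1.44 thinned. That of the longest was -0.25 above 50%, 0.42 with no gene filter and 0.95 scaled to the total. Of the genes named, those above 50% turned sign to -0.21 (Angpt2), -0.11 (Kcnq1ot1), -0.43 (Pvt1), 0.21 (Gas5), -0.28 (Mecom), -0.43 (Meis1), -0.0087 (Mllt3), 0.17 (Hoxa9), 0.064 (Pdzk1ip1), -0.23 (B4galt1), 0.83 (Mpo), -0.37 (Lrpprc), 0.20 (Ier3), -0.77 (Pecam1) and -0.16 (Angpt1). Mpo was at 0.063 with no library term and 0.13 scaled to the total, and Muc13 at -0.018 with no gene filter. S100a9 was at 1.94 without mature lineages, a removal that could not reach barcodes of under 500 non-mitochondrial UMIs. B4galt1 between the labels was at 0.01 without WT 2 and 0.054 without knockout 1. Without thinning, 12 of 13 lineage lists passed, with the endothelial and stromal list at -31.2 points, and the erythroid list was at 0.23 points with 3 UMIs. Of the other single-gene and single-list values, 1555 kept direction and call, 149 lost the call and 12 gained it. The cause was not tested for any of these, nor was the part that depth has in the small counts of list B and of the barcodes above 75%.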

Other observations

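Barcodes of at least 500 but under 1000 UMIs were not part of any comparison. They numbered 1229, 899 and 66 in knockout 1 to 3 and 923, 604, 1421 and 160 in WT 1 to 4. Their median mitochondrial share was 71.2%, 80.4% and 16.2% in knockout 1 to 3 and 73.2%, 75.8%, 66.5% and 21.5% in WT 1 to 4, so that in list A most of these barcodes lay above a share of 50% (60.2% to 92.5% of them). Among the 9.08% of genes called higher above 50% than at 10% to 50% within list A, a few singled out after their values were seen were Cnga1 (a cyclic nucleotide-gated channel subunit), higher by 5.71 (SE 0.46) on the log2 scale, Grik1, a glutamate receptor subunit, by 3.78 and Nkain2 by 3.72, each in 5 of 5 libraries, as was Pf4, the platelet chemokine, by 3.74.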
